A study of Homo sapiens with 16 samples.

Results

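The 37 genes described here encode proteins of the lysosome and of the vacuolar proton pump, the V-ATPase, and were picked by name from the 60107 genes counted in each library. They comprise 17 lysosomal hydrolases, 6 other lysosomal proteins and 14 V-ATPase proteins, of which 4 belong to the V0 sector, 8 to the V1 sector and 2 are accessory subunits. Lysosomes are acidic compartments in which hydrolases degrade proteins, lipids and glycans delivered by endocytosis and autophagy. The V-ATPase acidifies them, with a cytosolic V1 sector that hydrolyses ATP and a membrane-embedded V0 sector through which protons pass. Many genes of both kinds carry a short promoter motif that is bound by TFEB, TFE3 and MITF, which is why they are often treated as one transcriptional network.

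Tags next to the poly(A) tail were counted in the cytoplasmic RNA of U2OS-TR, human osteosarcoma cells with a stably expressed tetracycline repressor. The transgene line carries in addition ΔN-RNMT, a catalytically inactive and cytoplasmic form of the cap methyltransferase RNMT, behind a doxycycline-inducible CMV promoter, and it is 1 clonal line that was kept for its high expression of the protein. Its 5 uninduced libraries came from cells without doxycycline, and its 5 induced libraries from cells given 1 μg/ml doxycycline 48 h after plating and collected 24 h later. The parental line lacks the transgene and gave 3 libraries without doxycycline and 3 with it, on the same schedule. Both arms of the first comparison therefore carry the transgene, and both arms of the second lack it. The paper describes the transgene libraries as biological replicates and the parental ones as coming from replicate cultures. Every p-value of a comparison within a line therefore measures the spread between its replicate libraries, in which culture and library preparation cannot be told apart. The test of the difference between lines uses 1 spread per gene over the replicate libraries of both lines.

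RNMT, the gene the transgene derives from, was read first as a check of the labels. Its level was between 55.6 and 113 CPM (counts per mega-count, TMM-scaled) in uninduced libraries and between 266 and 459 CPM in induced ones, a log2 fold change of 2.22 (standard error, SE, 0.23, adjusted p = 0.00805 by edgeR's quasi-likelihood test). Gene counts per library ranged from 12527183 to 23251834 in the transgene line and from 1473286 to 3214808 in the parental line, which was sequenced elsewhere on another instrument with longer reads. Of 9 mesenchymal and osteoblast markers, 7 were at or above 1 CPM in all 10 libraries of the transgene line, with a summed level of 641 to 1069 CPM uninduced and 868 to 1258 CPM induced. COL1A2 was at 0 in the uninduced libraries. No blood or endothelial marker of 9 reached that level in every library, and their sum stayed between 1.00 and 1.69 CPM. Of 5 epithelial markers 2 reached it in every library, and all 5 summed to 12.5 to 22.1 CPM uninduced and 17.6 to 25.2 CPM induced. In the parental line the mesenchymal markers summed to 1041 to 1380 CPM untreated and 728.5 to 1802 CPM treated. The epithelial ones summed there to 41.5 to 70.7 and 41.9 to 57.9 CPM, and the blood and endothelial ones to 1.80 to 3.075 and 1.07 to 8.15 CPM. Uninduced replicate 5 and induced replicate 2 stood apart from their groups, with median within-group correlations of 0.930 and 0.940, and values without each of them are given below.

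Promoters were examined because the members are known for a shared motif, TCACGTG, which reads CACGTGA on the other strand. RefSeq promoter sequences of GRCh38.p14, from 250 bases before to 50 bases after the start, were matched for 26 of the 37 members; CTSB, HEXA, NAGLU, SGSH, LAMP2, PSAP, ATP6V0E1, ATP6V1A, ATP6V1B2, ATP6V1C1 and ATP6V1H had no entry. The motif was present in 8 of the 26 (30.8%), against 1303 of 35116 promoters (3.71%). For each of the 8 promoters 1 window is shown, 5′ to 3′ on the strand of the gene, with the motif in capitals and flanking bases in lower case, and some of these promoters hold further matches that are not printed. Where both orientations overlap, the capitals cover both. The windows were chr20:45891299-45891326 on the plus strand for CTSA, chr11:1763958-1763984 on the minus strand for CTSD, chr17:80101539-80101566 on the plus strand for GAA, chr6:31862932-31862958 on the minus strand for NEU1, chr13:113297200-113297227 on the plus strand for LAMP1, chr1:43974910-43974936 on the plus strand for ATP6V0B, chr16:67481200-67481227 on the minus strand for ATP6V0D1 and chr9:114587700-114587727 on the plus strand for ATP6V1G1.
CTSA: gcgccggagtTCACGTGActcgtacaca
CTSD: cggccgcgccCACGTGAccggtccggg
GAA: ctcccgccggTCACGTGAcccgcctctg
NEU1: tgctgcgtgaTCACGTGggaggagatg
LAMP1: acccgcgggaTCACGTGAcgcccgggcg
ATP6V0B: taccggcgcaTCACGTGggcgagttag
ATP6V0D1: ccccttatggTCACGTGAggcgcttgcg
ATP6V1G1: cgctgtgcggTCACGTGAcaacgggggc
A match of letters is a description of the window and shows no binding. The motif was found in 4 of 13 hydrolase promoters, 1 of 4 of the other lysosomal proteins and 3 of 9 of the V-ATPase.

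The first comparison asked how these transcripts changed when the inactive methyltransferase was induced. Of the 37 members 36 had a mean count above 20 and were tested, and the exception was MAN2B1, the lysosomal alpha-mannosidase, which had 0 to 2 counts per library and shares its interval with ENSG00000269242 and ENSG00000269590 on the same strand. On induction 15 members changed, 12 of them lower and 3 higher, and 21 did not pass the test at an adjusted p below 0.05 (edgeR's quasi-likelihood test, Benjamini-Hochberg adjustment over all genes tested). That is 33.3% lower and 8.33% higher, where 39.8% of all 13038 genes tested were called, 19.8% lower and 20.0% higher. The median log2 fold change of the members was -0.25, with 21 below 0, while over all genes tested the median was 0.04 and 47.9% were below 0. In bulk RNA, fewer cells that express a gene and less of its RNA per cell cannot be told apart. These counts depended on scaling and on single libraries. Scaled by total counts alone, 7 members were called lower and 7 higher, at a median over all genes of 0.28. Of 13038 genes that scaling called 5423, 1401 of them lower. Without uninduced replicate 1, 2 or 5 the fit called 6, 6 and 15 members lower, where 1496, 1244 and 3555 of all genes were lower. Without induced replicate 1, 3 or 4 it called 4, 6 and 5 members lower, where 953, 1194 and 929 of all genes were. With all libraries 2579 genes were lower, so the member counts moved with those of all genes. The number called higher was 8 without uninduced replicate 5 and 5 without induced replicate 2. Those 2 fits called 7604 and 6353 genes in either direction, against 5183 with all libraries. The 15 called members had the sign given here in every fit that was run. They were selected by the main fit and the other fits reuse its libraries, so the kept sign is no separate support.

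**Figure D1:**
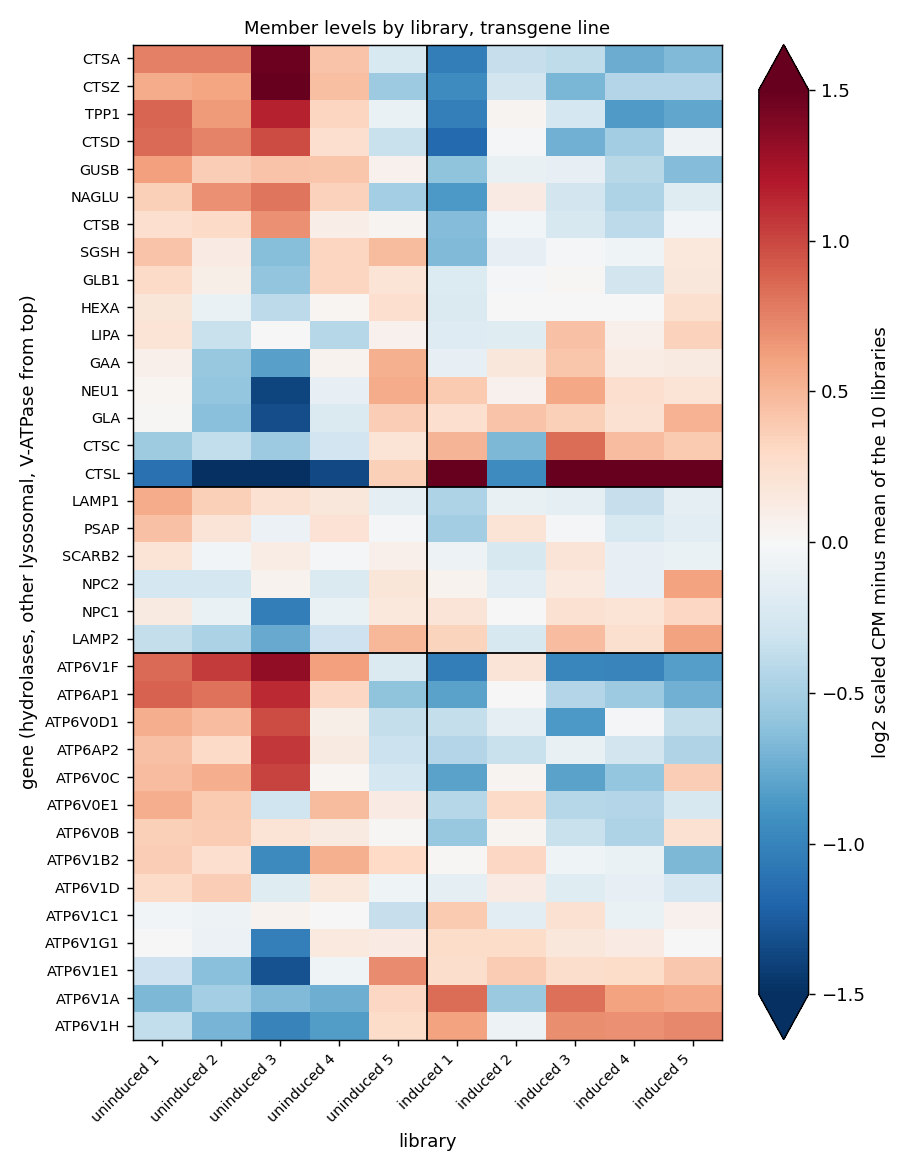
The heatmap shows 36 members (rows, grouped into hydrolases, other lysosomal proteins and V-ATPase, and sorted by log2 fold change) in the 10 libraries of the transgene line (columns), as the log2 scaled CPM minus the gene's mean over the libraries, with colours that saturate at the ends of the scale. Genes at the top of each block are mostly red in uninduced and blue in induced libraries, CTSL, ATP6V1A and ATP6V1H show the opposite, and uninduced replicate 5 and induced replicate 2 differ from the other columns of their groups.

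Among the hydrolases 7 fell, 1 rose and 8 did not pass the test, and the median of the 16 tested was -0.23. That is 43.8% lower and 6.25% higher, where 19.8% and 20.0% of all genes tested were. The 7 that fell were cathepsins A, B, D and Z, GUSB, NAGLU and TPP1, and the one that rose was cathepsin L. CTSA, a serine carboxypeptidase that also protects beta-galactosidase and neuraminidase (chromosome 20, 45890144 to 45898949, plus strand, 15 exons), had 100, 99.8, 164, 79.9 and 50.4 CPM in uninduced replicates 1 to 5. In induced replicates 1 to 5 it had 28.9, 46.6, 45.3, 35.3 and 37.4 CPM. Every induced library lay below every uninduced one, with means of 98.8 ± 41.6 and 38.7 ± 7.31 CPM (SD, n = 5 each). CTSA fell by 1.35 on the log2 scale (SE 0.28, edgeR adjusted p = 0.0175), and its genomic interval overlaps NEURL2 and PLTP on the other strand. Its promoter is the first of those printed above.

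GUSB, the beta-glucuronidase that trims glycosaminoglycans (chromosome 7, 65960684 to 65982215, minus strand, 12 exons), was also separated completely between the groups. It had 51.7, 43.6, 45.1, 44.8 and 35.1 CPM uninduced and 22.2, 31.3, 31.0, 25.2 and 21.5 CPM induced. The means were 44.1 ± 5.93 and 26.2 ± 4.69 CPM (SD, n = 5 each), and the log2 fold change was -0.75 (SE 0.17, edgeR adjusted p = 0.0175). GENCODE lists 18 numbered GUSB pseudogenes, and tags that aligned to more than 1 place are not in the gene counts. Whether GUSB lost tags in this way was not tested. CTSB, a cysteine protease of chromosome 8 (11842524 to 11869533, minus strand), was the last member without overlap. Its levels were 171, 176, 232, 154 and 148 CPM uninduced and 92.0, 140, 122, 109 and 140 CPM induced, and the log2 fold change was -0.54 (SE 0.17, edgeR adjusted p = 0.0311). These 3 members were the only ones whose groups did not overlap, all of them lower, where 4.22% of all genes tested were lower without overlap and 3.08% higher.

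In the other 4 hydrolases that fell, uninduced replicate 5 was the library that reached into the induced range. TPP1, a tripeptidyl peptidase (chromosome 11, 6612768 to 6619448, minus strand), had 14.17, 12.04, 17.2, 9.73 and 7.25 CPM uninduced and 3.80, 7.95, 6.47, 4.29 and 4.51 CPM induced. Its groups overlapped only through uninduced replicate 5 and induced replicate 2, and the log2 fold change was -1.16 (SE 0.27, edgeR adjusted p = 0.0175). CTSZ, a carboxypeptidase, had 117, 120, 264, 109 and 54.6 CPM uninduced and 41.4, 66.1, 49.5, 58.8 and 58.8 CPM induced. Uninduced replicate 3 was the high one and uninduced replicate 5 lay inside the induced range, and CTSZ fell by 1.27 on the log2 scale (SE 0.34, edgeR adjusted p = 0.0188). CTSD, the main lysosomal aspartic protease, had 196, 182, 213, 129 and 86.4 CPM uninduced and 48.6, 108, 65.7, 75.5 and 103 CPM induced. Uninduced replicate 5 lay below induced replicates 2 and 5, and the log2 fold change was -1.01 (SE 0.28, edgeR adjusted p = 0.0210). NAGLU, an N-acetylglucosaminidase of heparan sulfate breakdown, averaged 9.33 ± 2.85 CPM uninduced and 5.75 ± 1.40 CPM induced (SD, n = 5 each). With 52 to 221 counts per library it was called at the margin, at a log2 fold change of -0.69 (SE 0.26, edgeR adjusted p = 0.0493).

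CTSL, a cysteine endopeptidase on chromosome 9 (87724051 to 87731469, plus strand, 8 exons), went the other way and had the largest change of all members. It had 9.60, 7.31, 5.67, 8.13 and 26.5 CPM in uninduced replicates 1 to 5 and 60.4, 10.8, 78.0, 58.3 and 58.6 CPM in induced replicates 1 to 5. Thus 4 uninduced libraries lay below and 4 induced libraries above all others, while uninduced replicate 5 exceeded induced replicate 2. CTSL rose by 2.21 on the log2 scale (SE 0.53, edgeR adjusted p = 0.0175). In the fits without 1 library it rose by 2.04 to 2.78. With 1 surrogate variable as a covariate it rose by 1.455 and was not called (edgeR adjusted p = 0.0699). It has 6 numbered pseudogenes in GENCODE. The 8 hydrolases that did not pass the test had log2 fold changes from -0.31 for SGSH to 0.66 for CTSC. CTSC, the dipeptidyl peptidase that activates granule proteases, came nearest, at an edgeR adjusted p of 0.0561 and a 95% interval from 0.11 to 1.22. GLA, whose product removes terminal alpha-galactose and whose gene overlaps RPL36A on the other strand, had 0.60 (adjusted p = 0.0840). The lysosomal enzymes GLB1, HEXA, LIPA, GAA and NEU1 had values of -0.15, 0.00, 0.20, 0.22 and 0.47, with intervals that all contained 0.

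Of the 6 other lysosomal proteins 1 fell (16.7%, where 19.8% of all genes tested did), and their median log2 fold change was 0.04, the same as that of all genes. LAMP1, a heavily glycosylated protein of the lysosomal membrane and one of the most abundant members, averaged 600 ± 105 CPM uninduced and 430 ± 45.6 CPM induced (SD, n = 5 each). LAMP1 fell by 0.48 on the log2 scale (SE 0.16, edgeR adjusted p = 0.0352), with uninduced replicate 5 inside the induced range. LAMP2, its relative with a role in autophagy, had 26.8, 24.9, 20.4, 27.8 and 48.6 CPM uninduced and 43.6, 29.2, 47.6, 40.9 and 52.3 CPM induced. Its value of 0.52 was of opposite sign but did not pass the test (SE 0.24, edgeR adjusted p = 0.0966), and uninduced replicate 5 again lay among the induced libraries. The cholesterol exporters NPC1 and NPC2 had 0.32 and 0.22, the glucocerebrosidase receptor SCARB2 had -0.13, and PSAP, the precursor of the saposins, had -0.29. None of these 4 passed.

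Within the V-ATPase 4 members fell, 2 rose and 8 did not pass the test, and the median of the 14 was -0.33. That is 28.6% lower and 14.3% higher, where 19.8% and 20.0% of all genes tested were. The sectors differed in what they showed, although a difference between them was not tested. All 4 V0 subunits had values below 0, from -0.73 to -0.41 with a median of -0.60, and 1 of them fell. The 8 V1 subunits ran from -1.45 to 1.00 with a median of 0.23, with 1 lower and 2 higher. Both accessory subunits fell.

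Of the V0 subunits, ATP6V0D1, which joins the membrane ring to the central stalk, was the one called. It averaged 18.4 ± 6.19 CPM uninduced and 11.1 ± 2.29 CPM induced (SD, n = 5 each), a log2 fold change of -0.73 (SE 0.25, edgeR adjusted p = 0.0367). The proteolipids ATP6V0C and ATP6V0B, which line the proton path, had -0.69 and -0.41, and ATP6V0E1 had -0.50. Their adjusted p-values were 0.0780, 0.0817 and 0.0686, and without uninduced replicate 5 all 4 V0 subunits were called lower. The call of ATP6V0D1 was kept in 3 of 10 fits that left out 1 library, and no V0 subunit was called without uninduced replicate 1 or 2 or without induced replicate 1, 3 or 4.

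ATP6V1F, a small subunit of the central stalk (chromosome 7, 128862856 to 128865847, plus strand, 2 exons), fell most of all members. It had 302, 344, 419, 255 and 144 CPM in uninduced replicates 1 to 5 and 81.4, 192, 85.0, 84.2 and 94.5 CPM in induced replicates 1 to 5. Uninduced replicate 5 and induced replicate 2 crossed, and the remaining libraries were widely separated. The log2 fold change was -1.45 (SE 0.32, edgeR adjusted p = 0.0175). ATP6V1A, the catalytic subunit that hydrolyses ATP, changed in the opposite direction, with 17.9, 20.0, 18.1, 17.1 and 35.3 CPM uninduced and 51.2, 19.3, 50.4, 43.3 and 42.4 CPM induced. The same 2 libraries lay on the wrong side, and ATP6V1A rose by 0.93 on the log2 scale (SE 0.29, edgeR adjusted p = 0.0273). ATP6V1H, a regulatory subunit that restrains free V1, had 5.43, 4.33, 3.50, 3.92 and 8.50 CPM uninduced and 10.7, 6.63, 11.4, 11.3 and 11.6 CPM induced, from 63 to 245 counts. It rose by 1.00 on the log2 scale (SE 0.26, edgeR adjusted p = 0.0186), with only those libraries overlapping.

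The other V1 subunits did not pass the test. ATP6V1B2, the non-catalytic partner of ATP6V1A and the most abundant V1 member in tags, had -0.25, and its uninduced libraries spread from 245 to 682 CPM. The stator and stalk subunits ATP6V1C1, ATP6V1D, ATP6V1E1 and ATP6V1G1 had 0.18, -0.24, 0.48 and 0.28, each with an interval that contained 0. Thus the transcripts of the A and B subunits of the same hexamer had point values of opposite sign, with intervals of 0.31 to 1.55 and -0.83 to 0.33. ATP6V1E1 and ATP6V1G1 have 3 and 7 numbered pseudogenes.

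The accessory subunits assist assembly and trafficking of the pump. ATP6AP1 (chromosome X, 154428633 to 154436516, plus strand) had 223, 213, 262, 150 and 79.7 CPM uninduced and 69.3, 120, 89.1, 82.6 and 73.6 CPM induced. Uninduced replicate 5 lay within the induced range, and the log2 fold change was -1.09 (SE 0.29, edgeR adjusted p = 0.0187). ATP6AP2, also known as the prorenin receptor (chromosome X, 40579372 to 40606848, plus strand), had 199, 179, 307, 161 and 118 CPM uninduced and 109, 116, 137, 122 and 108 CPM induced. It overlapped only through uninduced replicate 5 and fell by 0.71 on the log2 scale (SE 0.23, edgeR adjusted p = 0.0306).

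**Figure D2:**
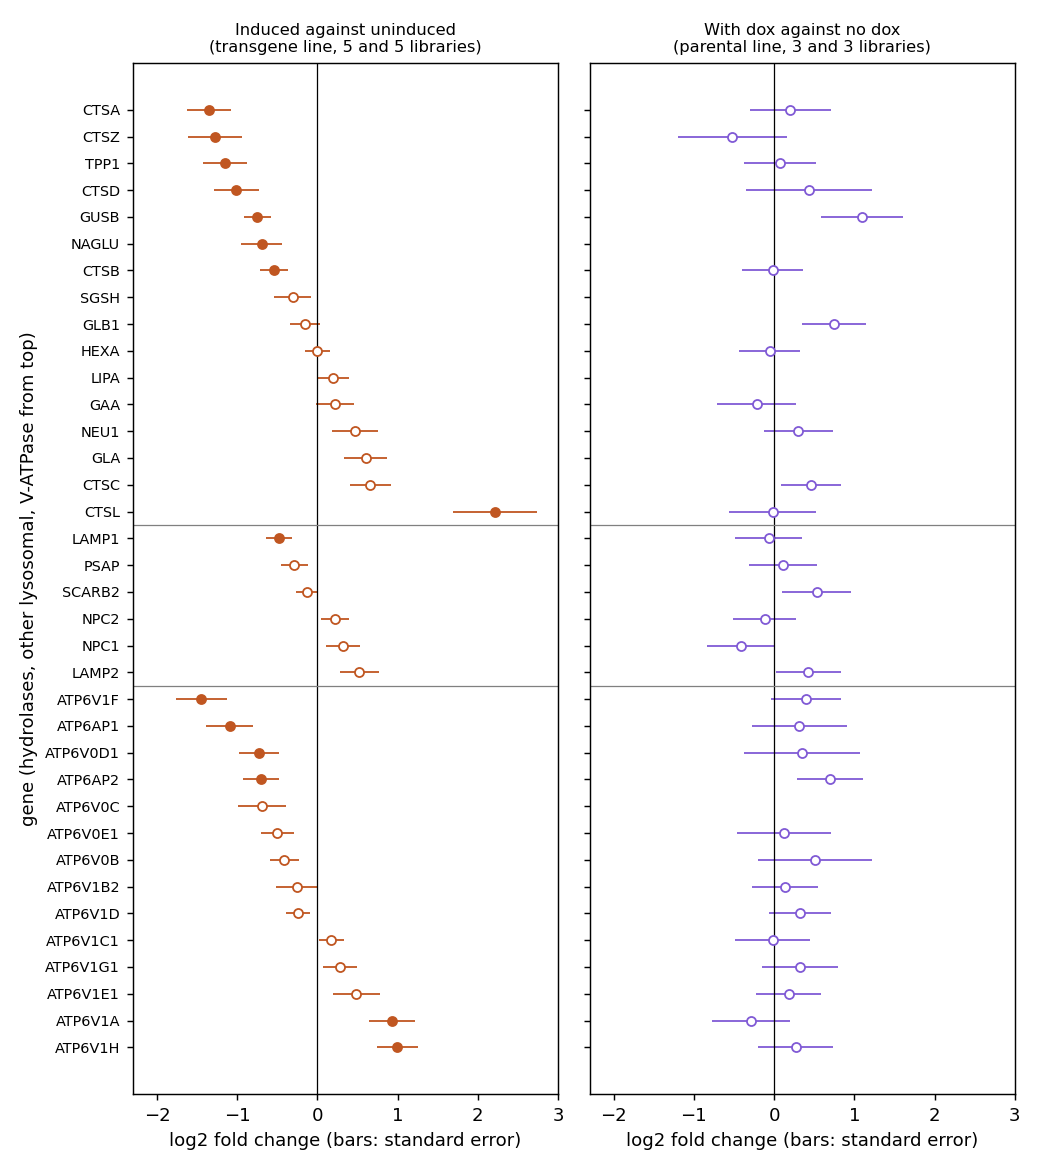
Log2 fold changes of each member (horizontal axis, bars are standard errors) in the transgene line on the left and the parental line on the right, with filled points for adjusted p below 0.05. In the transgene line 12 filled points lie left of 0 and 3 right of it, whereas in the parental line no point is filled and members that were not tested are blank.

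A recurring pattern was that the same libraries set the size of the gap. For all 15 called members uninduced replicate 5 was the uninduced library nearest to the induced group, and induced replicate 2 was the induced library nearest to the uninduced group for 13 of them. Without uninduced replicate 5, 15 members were lower and 8 higher, and without induced replicate 2, 13 were lower and 5 higher. Each of these fits called all 15 members again. Leaving out a library that lies nearest to the other group widens the gap, so the kept calls are no separate support. Calls over all genes rose as well, from 5183 to 7604 and 6353. CTSA, CTSL, GUSB, TPP1, ATP6V1F and ATP6V1H were called in all 10 fits that left out 1 library, with adjusted p-values up to 0.0495.

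**Figure D3:**
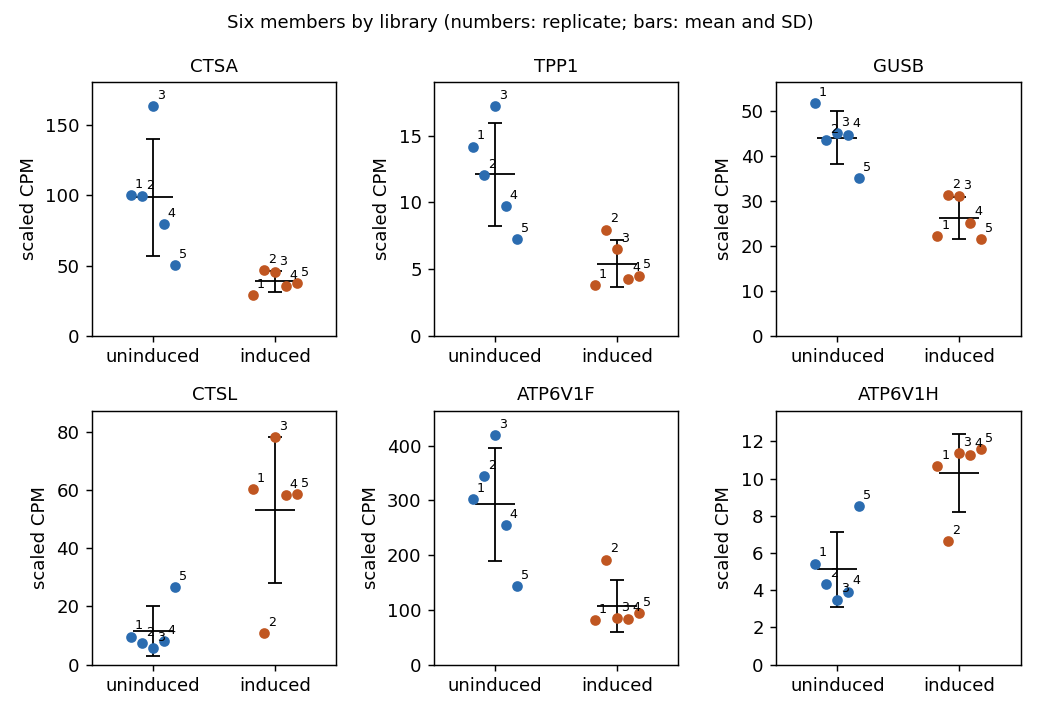
Scaled CPM of the 6 members that were called in every fit with 1 library left out (points are libraries with their replicate number, lines are mean and SD, n = 5). CTSA and GUSB do not overlap between the groups, and in the others uninduced replicate 5 or induced replicate 2 crosses into the other group's range.

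Transcript composition moved with the result. Over the 36 tested members the log2 fold change correlated with the GC content of the transcript (Spearman -0.55, Pearson -0.49), and over all genes with a GC value the correlation was -0.43 and -0.37, in the same 10 libraries. The 12 members that fell had a median GC content of 56.2% and the 3 that rose 44.5%, against 48.3% for all genes tested. When GC was taken into account by offsets, 5 of the 12 were still called lower (CTSA, GUSB, TPP1, ATP6V1F and ATP6AP2) and 2 of the 3 higher (CTSL and ATP6V1H). SCARB2, ATP6V0E1 and ATP6V1D were added as lower, and the hydrolase median was then -0.08. Over all 13038 genes the offsets left 3013 called, 1402 of them lower, against 5183 and 2579 without offsets. CTSD, CTSZ, CTSB and ATP6AP1 had -0.45, -0.83, -0.40 and -0.67 under the offsets, with adjusted p-values of 0.0866, 0.0518, 0.0688 and 0.0521. NAGLU, LAMP1 and ATP6V0D1 had -0.12, -0.18 and -0.32, and ATP6V1A had 0.62, none of them called. With 1 surrogate variable as a covariate no member was called, as only 1 of 13038 genes was, and 11 members had an unadjusted p below 0.05.

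Summed over its members, each class is dominated by its abundant transcripts. The hydrolases summed to 848 ± 157 CPM in uninduced and 613 ± 64.9 CPM in induced libraries (SD, n = 5 each), and uninduced replicate 5, at 673 CPM, lay just below the highest induced library at 676 CPM. The V-ATPase summed to 2068 ± 192 CPM uninduced and 1590 ± 194 CPM induced, where induced replicate 2, at 1929 CPM, lay above uninduced replicates 3 and 5. The other lysosomal proteins summed to 1467 ± 119 and 1280 ± 139 CPM. The ratio of the V-ATPase sum to the hydrolase sum overlapped between the groups, from 1.74 to 2.83 in uninduced and from 2.14 to 3.13 in induced libraries. Scaled by total counts alone, the hydrolases summed to 776 ± 97.2 and 667 ± 83.0 CPM and the V-ATPase to 1906 ± 196 and 1722 ± 144 CPM, which narrows both gaps. The other lysosomal proteins then turned direction, at 1351 ± 119 CPM uninduced and 1392 ± 174 CPM induced.

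**Figure D4:**
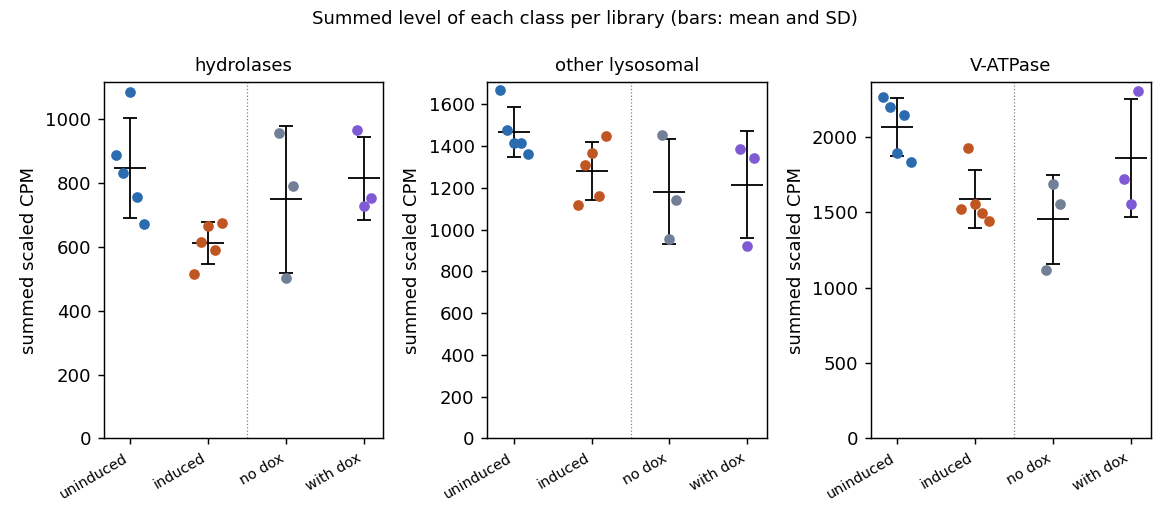
Summed scaled CPM of the hydrolases, the other lysosomal proteins and the V-ATPase members in each library (points), with mean and SD (lines), scaled within each line. In the transgene line the induced libraries mostly sit below the uninduced ones in the hydrolase and V-ATPase panels with 1 or 2 libraries crossing, and in the parental line the groups overlap in all panels.

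Genes of the same pathway outside the 37 were looked up in fixed lists. Over all genes tested 19.8% were called lower and 20.0% higher, which is the share to set beside each list. Of 30 further lysosomal hydrolases 25 were tested, 8 fell (32%) and 7 rose (28%), at a median log2 fold change of -0.12. Those with the largest changes all rose. They were ARSB, the arylsulfatase of dermatan sulfate breakdown, with 2.73 (edgeR adjusted p = 0.0175), LGMN, an asparaginyl endopeptidase, with 2.23 (adjusted p = 0.0207), and CTSV, the closest relative of cathepsin L, with 2.11 (adjusted p = 0.0175). LGMN had as few as 4 counts in a library. CTSV had 8.53, 9.36, 7.17, 7.79 and 17.7 CPM uninduced and 51.6, 11.3, 66.0, 50.4 and 39.6 CPM induced, so the library order of CTSL recurred, with uninduced replicate 5 above induced replicate 2.

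Of 16 further membrane and cofactor proteins 4 fell (25%, where 19.8% of all genes tested did), at a median of -0.26. The cystine exporter CTNS had -1.19 (edgeR adjusted p = 0.0177), and the potassium and proton channel TMEM175 had -1.003 (adjusted p = 0.0358). Of 19 further V-ATPase subunits and assembly factors only 10 were tested, and 3 fell (30%) and 1 rose (10%), at a median of -0.16. ATP6V0E2, the paralogue of ATP6V0E1, fell by 1.23 on the log2 scale (edgeR adjusted p = 0.0175) and ROGDI, a likely assembly factor, by 0.80 (adjusted p = 0.0175), while DMXL1, which promotes reassembly of V1 with V0, rose by 0.64 (adjusted p = 0.0187). DMXL1 was the only gene of this list whose groups did not overlap, where 3.08% of all genes tested were higher without overlap and 4.22% lower. In the other pathway lists, 3 further hydrolases, 1 sorting gene and 1 MiT/TFE regulator were lower without overlap and 0 were higher.

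Among 10 genes for sorting and maturation of lysosomal enzymes 3 fell (30%) and 2 rose (20%), at a median of 0.06. Over all genes tested 19.8% were lower and 20.0% higher. Both mannose 6-phosphate receptors were the ones that rose, IGF2R by 2.44 (edgeR adjusted p = 0.0175) and M6PR by 0.87 (adjusted p = 0.0384). SUMF1, which activates sulfatases, fell by 1.16 (adjusted p = 0.0175). Of the 16 MiT/TFE factors and regulators on the lysosomal surface 15 were tested, 4 fell (26.7%) and 3 rose (20%), near the shares of all genes, at a median of 0.30. LAMTOR3, a subunit of the Ragulator scaffold, rose by 2.38 (adjusted p = 0.0175), the Rag GTPase RRAGC by 1.84 (adjusted p = 0.0300), and TFEB fell by 1.12 (adjusted p = 0.0177). TFEB had 25.1, 28.0, 38.8, 22.1 and 11.5 CPM uninduced and 10.9, 15.2, 10.3, 8.71 and 12.6 CPM induced, with uninduced replicate 5 inside the induced range. TFE3, chosen after its value was seen, had -0.78 (adjusted p = 0.0179). MITF, the third factor said above to bind the motif, had 0.12 and did not pass the test (edgeR adjusted p = 0.516). Of the members with the TFEB motif in the matched promoters, 4 fell (CTSA, CTSD, LAMP1 and ATP6V0D1) and 4 did not pass the test (GAA, NEU1, ATP6V0B and ATP6V1G1). By call, the motif was found in 4 of 10 promoters of members that fell, 4 of 14 of those not called and 0 of 1 of those that rose.

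The second comparison asked what doxycycline did to the same genes without the transgene. Of the members 31 were tested, since GLA, LIPA, MAN2B1, NAGLU, SGSH and ATP6V0C were too low at this depth. None was called by edgeR and none had an unadjusted p below 0.05. Over all 9124 genes tested 0 (0.00%) were called and 267 (2.93%) had an unadjusted p below 0.05, while DESeq2's Wald test called 1 gene and no member. The median log2 fold change was 0.14 for 12 hydrolases, 0.02 for the 6 other lysosomal proteins and 0.31 for 13 V-ATPase members, of which 11 were above 0, at a median over all genes of -0.01 with 50.7% below 0. The standard errors of the members had a median of 0.43, against 0.24 in the transgene line, so only large differences were detectable. GLB1 was the only member whose groups did not overlap, with 28.9, 45.7 and 45.5 CPM without and 89.3, 50.6 and 61.9 CPM with doxycycline, where 4.87% of all genes were higher without overlap and 4.66% lower. GUSB had 30.8, 30.5 and 86.5 CPM without and 137, 118 and 62.8 CPM with doxycycline. Its log2 fold change was 1.10 with a 95% interval from -0.04 to 2.23, so it did not pass the test but its point value was opposite to that in the transgene line. ATP6AP2 had 239, 156 and 287 CPM without and 447, 406 and 251 CPM with doxycycline, a log2 fold change of 0.70 with an interval from -0.22 to 1.61. Treated replicate 3 stood far above the other treated libraries for ATP6V0B, picked after its values were seen, with 109, 62.2 and 565 CPM in the treated replicates, and without it the V-ATPase median was 0.13. The hydrolases summed to 750 ± 230 CPM without and 816 ± 131 CPM with doxycycline, and the V-ATPase to 1454 ± 298 and 1862 ± 392 CPM (SD, n = 3 each).

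Whether the doxycycline response differed between the lines was tested directly in a joint fit of all 16 libraries. The difference is the log2 fold change in the transgene line minus that in the parental line, both as estimated in that fit. Because the joint fit scales all libraries together, its differences are not those between the values given above for each line. Of 36 members tested 2 were called, GUSB and ATP6AP2, where 2.98% of 12265 genes were. The difference for GUSB was -2.06 (SE 0.47, 95% interval -3.06 to -1.07, edgeR adjusted p = 0.0408) and for ATP6AP2 -1.64 (SE 0.43, 95% interval -2.55 to -0.73, adjusted p = 0.0496). ATP6V1F had -2.09 (adjusted p = 0.0529), and CTSA had -1.79 and GLB1 -1.11 (adjusted p = 0.0775 for both). In all 28 of the 36 differences were negative, with a median of -0.62, and the median over all genes was -0.09. Scaled by total counts alone, the median over all genes moved to 0.49 and 0 members were called, with GUSB at -1.49 (adjusted p = 0.0713) and ATP6AP2 at -1.02 (adjusted p = 0.122), so the calls and the number of negative differences are relative to the scaling. At an unadjusted p below 0.05 there were 11 members, 10 of them negative, where 26.1% of all genes passed and 16.1% did so with a negative difference. The exception was CTSL, at 2.02 (adjusted p = 0.125). The class medians were close, -0.61 for hydrolases and -0.70 for the V-ATPase. The 2 calls were not stable, because leaving out 1 library gave 0 members in 12 of 16 fits. Those 12 fits each lacked uninduced replicate 1, 2, 3 or 4, induced replicate 1, 3, 4 or 5, untreated replicate 1 or 2, or treated replicate 1 or 3. Over all genes they called from 0 (without uninduced replicate 1) to 119 of 12466 (without untreated replicate 2), against 365 with all libraries. Calls were thus lost over all genes and not for these members alone. There were 8 members without uninduced replicate 5, 5 without induced replicate 2, 6 without treated replicate 2 and 2 without untreated replicate 3. In that order, these fits called 2290, 1170, 1647 and 686 of 12125, 12135, 12412 and 12342 genes tested. Instrument, read length and line cannot be told apart in this test. Its spread per gene is shared by both lines, although the parental libraries varied more. The separate fit of the parental line gave an SE of 0.51 for GUSB and 0.41 for ATP6AP2. Among the further lists ASAH1, CTSH, GALNS and TMEM199 were called, with differences of -1.44, -2.33, -1.81 and -1.72.

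**Figure D5:**
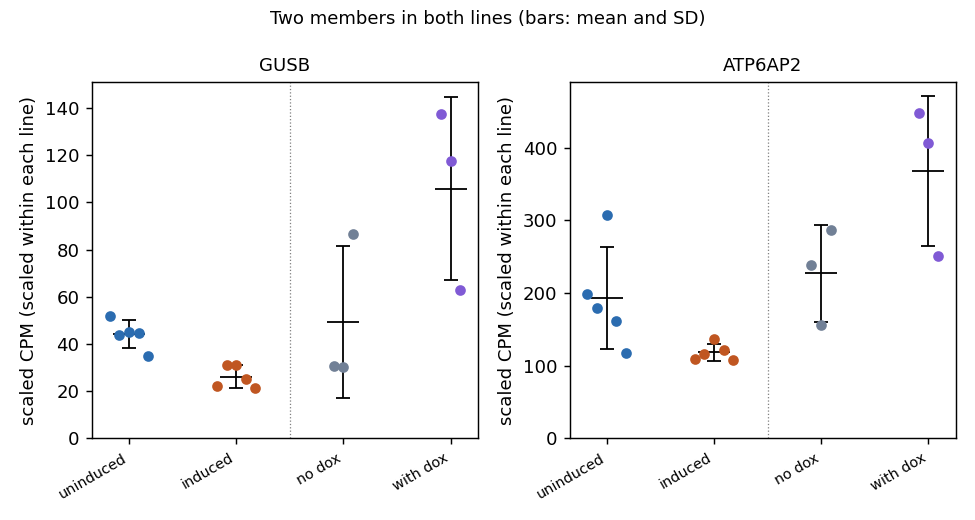
Scaled CPM of GUSB and ATP6AP2 in each library of both lines (points), with mean and SD (lines), scaled within each line. Both are lower in induced than in uninduced libraries, while in the parental line the treated libraries have the higher mean and overlap the untreated ones.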

How the data were processed

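Cytoplasmic poly(A) RNA of 16 libraries was measured with QuantSeq REV. The authors deposited raw tag counts for each Ensembl gene, which the study's methods credit to Lexogen's QuantSeq REV pipeline on GRCh38. The aligner, annotation release, strand use and handling of duplicate tags are not given in the sources used here. Each table lists 60107 genes, 92 spike-in entries and 5 summary entries, and spike-in and summary entries were left out of library sizes and tests. Relative to the gene counts, tags outside genes came to 7.44% to 10.6% (transgene line) and 111% to 149.7% (parental line). Tags were counted near 3′ ends, so CPM values are per tag and not per length. Symbols and positions are from GENCODE release 44. Groups come from the library titles, although the treatment note lists doxycycline for all libraries.

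Genes with a mean count above 20 were fitted with edgeR 4.0.16 in R 4.3.3 (TMM scaling, quasi-likelihood test, Benjamini-Hochberg adjustment, calls below 0.05), separately for each line and jointly for the difference between lines. The study's methods name DESeq2. Standard errors are the log2 fold change divided by the root of the test statistic, and intervals are at 95%. The code was tested on simulated data. The closest replicates differed beyond sampling noise (chi-square over degrees of freedom 4.55). One count was worth 0.0434 to 0.0746 CPM in the transgene line and 0.300 to 0.815 CPM in the parental line, and intervals cover the spread of these libraries only.

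The members, the further lists and the tests were chosen with earlier results of these data known. All members are accounted for. Full values were given to the 12 called members with the smallest p and to the member with the largest absolute change of each class. Of each further list up to 3 called genes with the largest absolute change were named. One gene that this rule took is not reported here. LAMP1, NAGLU and ATP6V0D1 were added because they complete the called members. Alternatives were DESeq2 1.42.0 (Wald test, size factors), total counts alone, filterByExpr, no filter, a replicate block, GC offsets (lowess span 0.5), both together, 1 surrogate variable (sva 3.50.0) and each replicate left out.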

Additional observations from a re-analysis of the deposited data

Results flagged for a closer look

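Within groups of 5 libraries, 10 of 72 sets of values (36 members in each arm of the transgene line) held a library far from the rest by Dixon's criterion. The criterion flags about 1 in 20 independent sets by chance. All members were read in the same libraries, so the sets are not independent and that rate cannot be set against the count. Uninduced replicate 5 was such a library 4 times, with high values of CTSC (41.3 CPM), CTSL (26.51 CPM), LAMP2 (48.64 CPM) and ATP6V1A (35.32 CPM). Induced replicate 2 was one 4 times, with high ATP6V0E1 (146.9 CPM) and ATP6V1F (191.6 CPM) and low ATP6V1A (19.33 CPM) and ATP6V1H (6.632 CPM). Uninduced replicate 3 was one for low ATP6V1B2 (245 CPM) and low ATP6V1G1 (96.42 CPM). By the edgeR test of the difference between lines, the response to doxycycline was called different for GUSB (-2.06 on the log2 scale) and ATP6AP2 (-1.64). Of all genes 2.98% were called in that test. Each of the 2 calls was kept in 4 of 16 fits that left out 1 library, and total counts alone called 0 members.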

How the results depend on the processing

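In the transgene line, total counts alone gave 7 members lower and 7 higher, medians of -0.004 for hydrolases and -0.10 for the V-ATPase, and induced over uninduced ratios of summed CPM of 1.03 for the other lysosomal proteins and 0.904 for the V-ATPase. GC offsets moved the hydrolase median to -0.082, and with a replicate block as well to -0.066 with 7 members lower. With 1 surrogate variable 0 members were lower and 0 higher, at a V-ATPase median of -0.21. Leaving out 1 library gave 4 to 15 members lower and 2 to 8 higher, with medians of -0.37 to -0.16 for hydrolases and -0.44 to -0.29 for the V-ATPase. DESeq2 called 14 lower and 4 higher, its size factors and filterByExpr 12 and 3 each, and no filter 9 and 3. The causes were not tested.

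The labels do not say whether libraries with equal replicate numbers were grown together, and the main fits did not pair them. Deviations of same-numbered libraries correlated between -0.39 and 0.67 in the transgene line. Their mean was 0.02, against -0.06 for other numbers, and 3 of 10 libraries correlated best with their own number. These values cannot decide whether the numbers mark pairs. With the replicate number as a block 9 members were lower and 3 higher, all of them among the 12 and 3. In the parental line every alternative called 0 members, and with 1 library left out the medians were 0.07 to 0.22 for hydrolases and 0.13 to 0.46 for the V-ATPase. The difference between lines was called for 5 members by DESeq2, 0 with total counts alone, and 0 to 8 without 1 library. The larger standard errors of the parental line limit that comparison to large changes. Its libraries were shallower, and their median within-group correlations were 0.812 to 0.864 untreated and 0.782 to 0.882 treated. Which of these sets the limit was not tested.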
